A study of Mus musculus with 6 samples.

Results

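WNT signalling was followed through 40 named genes that cover ligands, receptors, antagonists, the proteins that hold or degrade beta-catenin, the transcription factors it joins and genes known to be induced by the pathway. They were chosen by name from the 24495 symbols of the deposited gene counts, and all 40 had a row there. The cells were spermatogonial stem cells, which sustain sperm production, cultured from DBA2 mice of postnatal days 5 to 8. For 2 weeks, 3 cultures had received EPZ5676 at 2 uM and 3 controls had received ethanol at 0.2%. An ethanol content was recorded for the controls only. EPZ5676 is a small-molecule inhibitor of DOT1L, the enzyme that methylates histone H3 on lysine 79 along transcribed genes, and the comparison asks which transcripts differ when it is present. The labels name no genotype beyond the strain background, and do not say whether a culture came from 1 animal or a pool. The series calls the 3 libraries of a group biological triplicates, but no label says what a replicate number stands for.

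In the canonical WNT pathway a secreted WNT protein binds a Frizzled receptor and the co-receptor LRP5 or LRP6, which halts the destruction complex built on AXIN and APC. Beta-catenin then accumulates, enters the nucleus and joins TCF/LEF factors at target genes, several of which encode inhibitors of the pathway itself. Other WNT proteins act without beta-catenin, through receptors such as ROR2.

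Total gene counts ran from 17784332 to 54645903 per library, with the highest in EPZ5676 replicate 2. Levels are given as CPM, counts scaled to library size with TMM normalisation. All 15 markers of undifferentiated spermatogonia were detected, with the germ cell gene Dazl between 1670 and 1818 CPM. Gfra1, the GDNF co-receptor of stem cells, was at 66.5 to 73.0 CPM with ethanol and 44.0 to 59.2 CPM with EPZ5676. Its unblocked and blocked edgeR adjusted p were 0.596 and 0.0611. Etv5, another of the 15, went the other way. It was at 84.2 to 92.7 CPM with ethanol and 94.2 to 105 CPM with EPZ5676, at edgeR adjusted p of 0.670 and 0.175. Over the 15, log2 fold changes were positive for 6 and negative for 9 (median -0.030), beside 48.3% positive of all genes. Somatic transcripts were present too: of the Sertoli markers, Wt1 lay between 17.5 and 35.6 CPM and Sox9 between 3.75 and 6.04 CPM, while Amh reached at most 0.163 CPM. Of the Leydig markers, Lhcgr had no count in any library. The summed levels of 6 of the 7 marker lists overlapped between the groups, and those of the 7 Leydig genes, mostly Star, did not, at 5.69 to 7.06 CPM with EPZ5676 and 8.21 to 10.6 CPM with ethanol. Both replicate 2 libraries stood apart from the other 4, and 16 fibroblast markers, of which none was at 0, summed to 1907 CPM in EPZ5676 replicate 2 and 2488 CPM in ethanol replicate 2 against 1437 to 1569 CPM in the others. Single fibroblast markers were mostly lower with EPZ5676 in the fit, but 0 of the 16 lay apart between the groups, beside 14.9% of all genes. Their sum, which holds much Fn1, overlapped too. Negative log2 fold changes were found for 14 of 16 (median -0.24), beside 7683 of all 14855 genes tested. In all 3 pairs of equal replicate number 9 were lower, beside 3313 of the 14855. No fibroblast marker was called by edgeR with all 6 libraries. When the replicate number entered as a block 7 were lower and 1 higher at an unadjusted p under 0.05, beside 9.51% and 9.01% of all genes. For some genes, values are also given without 1 or both of the replicate 2 libraries.

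No WNT gene passed the test between EPZ5676 and ethanol. Of the 40 genes, 36 passed the filter on low counts, and edgeR was run over all 14855 genes that passed it, once on the 2 groups alone (the unblocked fit) and once with the replicate number as a further term (the blocked fit). By its quasi-likelihood test, at a Benjamini-Hochberg adjusted p under 0.05, the unblocked fit called 0 of the 36 WNT genes and 0% of all genes, and the blocked fit called 0 of the 36 and 0.653% of all genes. The smallest adjusted p of a WNT gene was 0.596 unblocked and 0.0546 blocked, the latter for Wnt3. At an unadjusted p under 0.05 the unblocked fit had 4 of the 36 (11.1%), beside 7.41% of all genes: 2 higher with EPZ5676, beside 3.84%, and 2 lower, beside 3.57%. The blocked fit had 9 (25.0%), beside 18.5%: 5 higher, beside 9.01%, and 4 lower, beside 9.51%. DESeq2 called 0 of the 36 and 50 of 14850 genes in all, with 3 of the 36 at an unadjusted p under 0.05, beside 1003 of all genes. Limma-voom called 0 of the 36 and 0 in all, with 4 of the 36 at an unadjusted p under 0.05, beside 1122 of 14855.

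Differences between the groups were small in both directions. Log2 fold changes of the 36 genes lay between -0.48 (Wnt5b, 1.39-fold lower with EPZ5676) and 0.57 (Myc, 1.49-fold higher). Positive values were found for 22 of the 36 (61.1%), beside 48.3% of all genes. The median was 0.10, against -0.0066 over all genes, and leaving out EPZ5676 replicate 2 alone gave -0.037, while leaving out both replicate 2 libraries gave 0.047 and the blocked fit on all 6 libraries 0.10. The groups did not overlap for 6 of the 36 genes (16.7%), beside 14.9% of all genes: Ctnnb1, Nkd2, Lgr5 and Fzd6 were higher with EPZ5676 in every library, beside 7.22% of all genes, and Fzd3 and Fzd7 lower, beside 7.64%. The direction was the same in all 3 pairs of equal replicate number for 15 genes (41.7%), beside 41.8% of all genes. The shares without overlap and with 1 direction in all pairs lie near those of all genes.

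**Figure D1:**
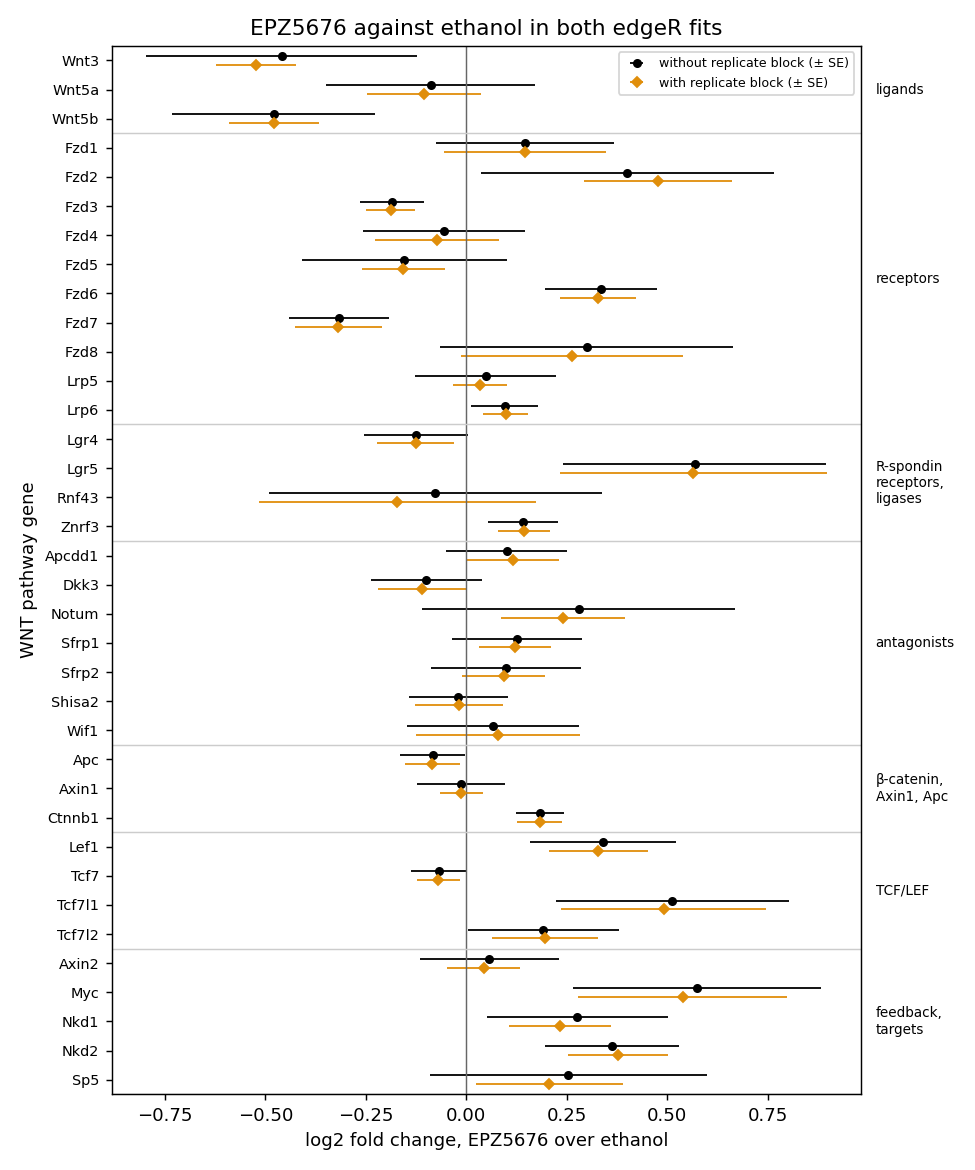
Log2 fold change of EPZ5676 over ethanol (horizontal axis) for the 36 tested WNT pathway genes, ordered by role, from the edgeR fit without (black circles) and with (orange diamonds) the replicate number as a block. Bars are ± 1 SE. Values lie between -0.52 and 0.57. Most bars are shorter with the block, among them those of Wnt3 and Wnt5b, while that of Lgr5 is not.

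TCF/LEF proteins bind a short DNA word. The promoters shown here are those of genes described one by one that held the word, spelled either CTTTGAA or with another ending as CTTTGAT, and likewise the spelling CTTTGTA or with another ending as CTTTGTT, on either strand, in the 250 bases before a transcription start. They come from RefSeq on GRCm38.p6, while the submitters' notes name mm9, and the capitals mark the word. Fzd7 is shown at chr1:59481897-59482146 on the plus strand, Lef1 at chr3:131156044-131156293 on the plus strand, 1 of 4 listed starts, and Wnt5b at chr6:119449387-119449636 on the minus strand, 1 of 3 listed starts.
Fzd7: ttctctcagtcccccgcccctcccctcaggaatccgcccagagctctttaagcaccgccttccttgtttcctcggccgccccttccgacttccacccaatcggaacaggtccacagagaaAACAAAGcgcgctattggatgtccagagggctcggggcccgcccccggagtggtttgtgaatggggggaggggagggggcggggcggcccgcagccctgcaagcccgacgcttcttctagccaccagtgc
Lef1: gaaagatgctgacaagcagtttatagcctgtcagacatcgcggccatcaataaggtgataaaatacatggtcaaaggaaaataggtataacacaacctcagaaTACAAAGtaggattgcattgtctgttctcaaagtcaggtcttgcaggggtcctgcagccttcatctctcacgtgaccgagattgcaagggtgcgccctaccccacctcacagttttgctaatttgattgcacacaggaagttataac
Wnt5b: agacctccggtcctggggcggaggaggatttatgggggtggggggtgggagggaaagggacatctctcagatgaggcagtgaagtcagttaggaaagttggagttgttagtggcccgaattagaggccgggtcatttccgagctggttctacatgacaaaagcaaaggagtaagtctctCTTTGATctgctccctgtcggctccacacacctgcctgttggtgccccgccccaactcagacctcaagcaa
The word began 130 bases before the start in Fzd7, 147 in Lef1 and 71 in Wnt5b. RefSeq promoters were listed for 24 of the 40 WNT genes, and 6 of their 33 promoters (18.2%) held a word, as did 14.8% of all 32851 promoters in the table. The others with a word were those of Dkk1, Sp5 and Tcf7l2. A match describes the letters of the window and no binding was measured.

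Of the 6 ligand genes, Wnt3, Wnt5a and Wnt5b had enough counts to test, and all 3 had negative log2 fold changes, none past the test. Wnt3, which encodes a canonical ligand, was at 45.1, 66.0 and 36.1 CPM in ethanol replicates 1, 2 and 3 and at 31.7, 53.7 and 20.6 CPM in EPZ5676 replicates 1, 2 and 3. The EPZ5676 library was the lower of each pair, and the groups overlapped through EPZ5676 replicate 2. Group means were 49.1 ± 15.4 CPM for ethanol and 35.3 ± 16.8 CPM for EPZ5676 (SD, n = 3). The unblocked log2 fold change was -0.46 ± 0.34 (SE) with an edgeR adjusted p of 0.791, and the blocked one -0.52 ± 0.10 with 0.0546. In blocked edgeR fits on 2 pairs, which leave 1 residual degree of freedom, Wnt3 was called lower without pair 2 (-0.65, adjusted p = 0.00127) and without pair 3 (-0.40, adjusted p = 0.0157), and not called without pair 1 (-0.54, adjusted p = 0.483). Without pair 2 or pair 3 such fits called far more genes in all than the 97 called with all 6 libraries. Without pair 1 they called no gene. The last section gives the totals, and calls of other genes in fits on 2 pairs carry the same limit. Unblocked, the Wnt3 value was -0.91 without EPZ5676 replicate 2, -0.19 without ethanol replicate 2 and -0.19 without EPZ5676 replicate 3. It was -0.64 without both replicate 2 libraries, with an edgeR adjusted p of 0.226. Most fibroblast markers likewise had negative log2 fold changes. Their sum was highest in the replicate 2 libraries, where Wnt3 was also the highest of each group and Wnt5b the lowest. The part of fibroblast RNA in the values of either gene was not tested. In bulk libraries, fewer cells of a type that expresses a gene and less RNA per cell cannot be told apart.

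Wnt5b, a ligand mostly studied for signalling without beta-catenin, had the same order within pairs. It was at 15.1, 9.40 and 12.6 CPM in ethanol replicates 1, 2 and 3 and at 11.9, 6.53 and 8.47 CPM in EPZ5676 replicates 1, 2 and 3. Here the replicate 2 library was the lowest of each group, and the groups overlapped. Its log2 fold change was -0.48 ± 0.25 (SE) unblocked and -0.48 ± 0.11 blocked, and the edgeR adjusted p were 0.710 and 0.0940. Without EPZ5676 replicate 2 the value was -0.28, without ethanol replicate 1 -0.31 and without EPZ5676 replicate 1 -0.73. Wnt5a, the best known ligand that acts without beta-catenin, ran from 4.32 to 7.44 CPM with ethanol and from 4.34 to 6.78 CPM with EPZ5676. Wnt3a, Wnt4 and Wnt6 did not pass the filter: their counts were 4 to 23, 2 to 29 and 0 to 3 per library. Per kilobase of exon, Wnt3 had the highest level of the ligands, 16.0 ± 5.00 CPM per kb with ethanol, against 4.66 ± 1.08 for Wnt5b and 0.803 ± 0.230 for Wnt5a (SD, n = 3). Exon lengths are those of a GRCm38 annotation while the submitters' notes name mm9, so levels per kilobase are approximate.

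**Figure D2:**
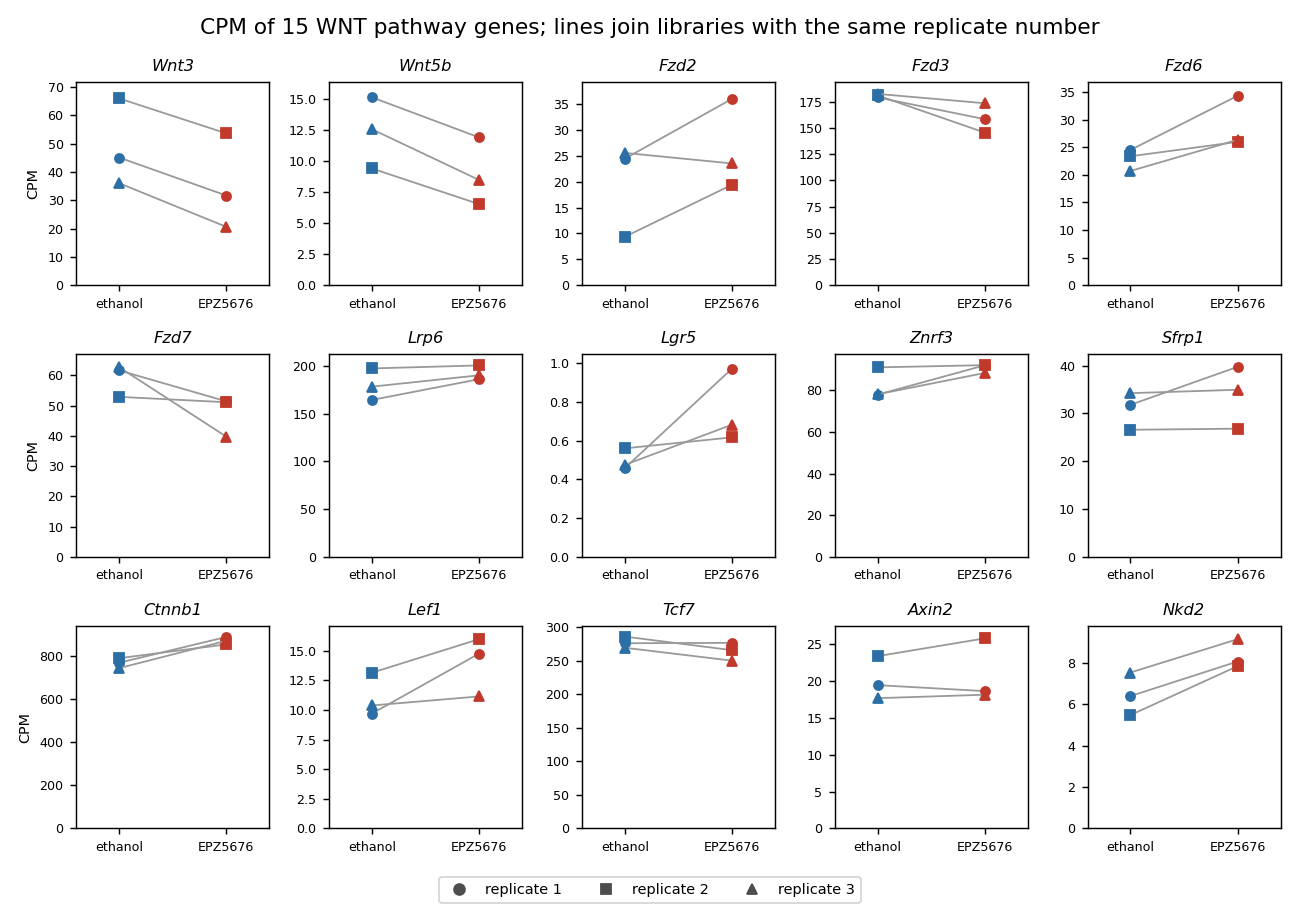
CPM (vertical axes, from 0) of the 15 WNT pathway genes described one by one under the naming rule, in ethanol (blue) and EPZ5676 (red) libraries. Symbols give the replicate number and grey lines join libraries of equal number. All 3 lines go down for Wnt3, Wnt5b, Fzd3 and Fzd7, and up for Fzd6, Lrp6, Lgr5, Znrf3, Sfrp1, Ctnnb1, Lef1 and Nkd2.

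Among the Frizzled receptors, Fzd3 and Fzd7 were lower in every EPZ5676 library and Fzd6 higher, without passing the test. Fzd7, which has been studied in embryonic and other stem cells, was at 61.6, 52.9 and 62.7 CPM in ethanol replicates 1, 2 and 3 and at 51.4, 51.1 and 39.7 CPM in EPZ5676 replicates 1, 2 and 3. The replicate 2 libraries were close to each other, and EPZ5676 replicate 3 was the lowest. The log2 fold change was -0.32 ± 0.12 (SE), with 0.649 and 0.186 as unblocked and blocked edgeR adjusted p, and -0.21 without EPZ5676 replicate 3. In the blocked fit without pair 2, Fzd7 was called lower (-0.46, edgeR adjusted p = 0.00787). Fzd3, a receptor also known from planar cell polarity, was at 179, 181 and 182 CPM with ethanol and at 158, 146 and 174 CPM with EPZ5676, in the same order. Ethanol libraries were close together, with an SD of 1.69 CPM against 14.0 CPM with EPZ5676 (n = 3). For Fzd3 the log2 fold change was -0.19 ± 0.080, edgeR adjusted p were 0.670 and 0.174, and the value was -0.12 without both replicate 2 libraries.

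Fzd6, another polarity receptor, was at 24.5, 23.4 and 20.7 CPM in ethanol replicates 1, 2 and 3 and at 34.4, 26.0 and 26.4 CPM in EPZ5676 replicates 1, 2 and 3. EPZ5676 replicate 1 was the highest, and the other EPZ5676 libraries lay just above the ethanol range. Its log2 fold change was 0.34 ± 0.14 (SE), with edgeR adjusted p of 0.659 unblocked and 0.138 blocked, and 0.19 without EPZ5676 replicate 1. It was called higher in the blocked fit without pair 2 (0.42, edgeR adjusted p = 0.0214). Fzd2, a receptor for several WNT proteins, was at 24.5, 9.35 and 25.6 CPM with ethanol and at 36.1, 19.4 and 23.6 CPM with EPZ5676, in the same order. Ethanol replicate 2 was far below the rest, and pair 3 ran against the other pairs. Fzd2 had a log2 fold change of 0.40 ± 0.37 and edgeR adjusted p of 0.837 and 0.228. Without ethanol replicate 2 it was 0.059, without EPZ5676 replicate 1 0.11, without ethanol replicate 3 0.63 and without both replicate 2 libraries 0.25. In the blocked fit without pair 3, Fzd2 was called higher (0.79, edgeR adjusted p = 0.00158).

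Fzd1, Fzd4, Fzd5 and Fzd8 overlapped between the groups, with group means from 1.17 to 14.9 CPM. Per kilobase of exon, the 8 Frizzleds among the 40 genes (Fzd1 to Fzd8) summed to 40.1 ± 3.80 CPM per kb with EPZ5676 and 41.4 ± 2.68 with ethanol (SD, n = 3). Fzd3 and Fzd7 took the most of that sum, 34.4 ± 2.36% and 31.5 ± 0.878% with ethanol and 31.4 ± 4.18% and 26.1 ± 3.31% with EPZ5676. Fzd6 took 12.7 ± 1.51% with ethanol and 16.4 ± 1.09% with EPZ5676, and Fzd2 12.8 ± 5.36% and 17.7 ± 4.13%. Shares of Fzd6 and of Fzd7 did not overlap between the groups, while those of Fzd2 and of Fzd3 did. Fzd9 and Fzd10 are not among the 40 genes and are left out of the sum: Fzd10 was at 4.11 ± 0.946 CPM per kb with EPZ5676 and 4.13 ± 0.995 with ethanol, and Fzd9 at 0.303 ± 0.149 and 0.282 ± 0.0626 (SD, n = 3). The shares were not tested.

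**Figure D3:**
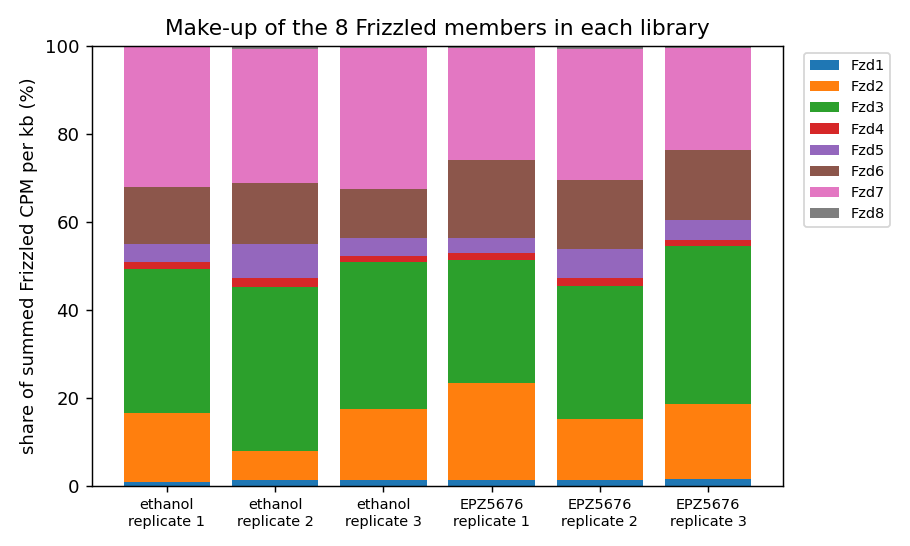
Share of each of the Frizzled genes Fzd1 to Fzd8 in their summed CPM per kb of exon (vertical axis, percent), 1 bar for each library. Fzd7 takes 30.5% to 32.2% with ethanol and 23.2% to 29.7% with EPZ5676, and Fzd6 takes 11.0% to 13.9% and 15.6% to 17.6%.

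The LRP co-receptors were close between the groups. Lrp6 was at 164, 197 and 178 CPM in ethanol replicates 1, 2 and 3 and at 186, 200 and 190 CPM in EPZ5676 replicates 1, 2 and 3. The EPZ5676 library was the higher of each pair, by least in pair 2, and the groups overlapped. Its log2 fold change of 0.10 ± 0.084 (SE) had edgeR adjusted p of 0.830 and 0.379, unblocked and blocked. Lrp5 ran from 59.1 to 81.8 CPM with ethanol and from 59.9 to 90.6 CPM with EPZ5676, with both replicate 2 libraries above the other 4.

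R-spondin receptors and the ubiquitin ligases they control set how many Frizzled receptors stay at the cell surface. Znrf3, a ligase that removes Frizzleds, was at 77.9, 91.0 and 78.1 CPM in ethanol replicates 1, 2 and 3 and at 92.0, 92.1 and 88.3 CPM in EPZ5676 replicates 1, 2 and 3. Ethanol replicate 2 reached the EPZ5676 range, so the groups overlapped. Znrf3 had a log2 fold change of 0.14 ± 0.087 (SE), at edgeR adjusted p of 0.751 and 0.287. The related ligase gene Rnf43 had 7 to 45 counts per library. Lgr5, an R-spondin receptor and a stem cell marker of gut epithelium, was at 0.457, 0.560 and 0.474 CPM with ethanol and at 0.971, 0.616 and 0.682 CPM with EPZ5676, in the same order. Every EPZ5676 library lay above the ethanol range, but the values rest on 9 to 34 counts per library. Its log2 fold change was 0.57 ± 0.33 at edgeR adjusted p of 0.737 and 0.398, and 0.37 without EPZ5676 replicate 1. Lgr4, the other R-spondin receptor listed, lay between 21.9 and 30.7 CPM in the 6 libraries.

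The groups overlapped for all 7 tested antagonists of the 40, beside 14.9% of all genes without overlap. Of 5 other tested genes of antagonists or their receptors, Frzb was higher in every EPZ5676 library and Kremen2 and Dkk2 were lower. None of them was called by either edgeR fit with all 6 libraries. Calls of Frzb by DESeq2 and in fits on 2 pairs are given below. Sfrp1, a secreted protein that binds WNTs, was at 31.8, 26.6 and 34.2 CPM in ethanol replicates 1, 2 and 3 and at 39.8, 26.8 and 35.0 CPM in EPZ5676 replicates 1, 2 and 3. The replicate 2 libraries were the lowest and nearly equal. Sfrp1 had a log2 fold change of 0.13 ± 0.16 (SE) and edgeR adjusted p of 0.892 and 0.500, and -0.0055 was its value without EPZ5676 replicate 1. Notum encodes an enzyme that strips the lipid from WNTs and is itself induced by the pathway. It was at 2.79, 5.60 and 2.61 CPM with ethanol and at 3.07, 6.62 and 3.31 CPM with EPZ5676, in the same order, with both replicate 2 libraries above the other 4. The other tested antagonists were Sfrp2, Dkk3, Apcdd1, Wif1 and Shisa2, with libraries between 2.69 CPM (Wif1) and 29.5 CPM (Sfrp2), and Dkk1 had 0 to 4 counts per library.

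Ctnnb1, the gene of beta-catenin, had the highest level of the WNT genes, in CPM and per kilobase of exon. It was at 769, 790 and 744 CPM in ethanol replicates 1, 2 and 3 and at 889, 854 and 871 CPM in EPZ5676 replicates 1, 2 and 3. All EPZ5676 libraries lay above all ethanol libraries. Group means were 768 ± 23.1 CPM for ethanol and 871 ± 17.3 CPM for EPZ5676 (SD, n = 3), a 1.13-fold difference in the fit. The log2 fold change was 0.18 ± 0.059 (SE), with edgeR adjusted p of 0.596 unblocked and 0.152 blocked, and of 0.370 to 0.999 when 1 library was left out. In the blocked fit without pair 2, Ctnnb1 was called higher (0.22, edgeR adjusted p = 0.00937). An exon of Ctnnb1 overlaps one of Ulk4 on the other strand, and whether the counting used strand is not known here. Axin1 and Apc, scaffolds of the destruction complex, overlapped between the groups, with means of 236 ± 30.3 and 462 ± 27.6 CPM for ethanol and 234 ± 23.0 and 436 ± 34.9 CPM for EPZ5676 (SD, n = 3).

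Of the TCF/LEF factors, Tcf7 had the highest level per kilobase of exon, 106 ± 3.19 CPM per kb with ethanol, against 3.45 ± 0.631 for Tcf7l2, 3.16 ± 0.521 for Lef1 and 0.507 ± 0.0910 for Tcf7l1 (SD, n = 3). Tcf7 was at 276, 286 and 269 CPM in ethanol replicates 1, 2 and 3 and at 277, 266 and 250 CPM in EPZ5676 replicates 1, 2 and 3. The groups overlapped, and the log2 fold change of -0.069 ± 0.068 (SE) had edgeR adjusted p of 0.853 and 0.512. Lef1, both a partner of beta-catenin and a target gene, was at 9.71, 13.2 and 10.4 CPM with ethanol and at 14.8, 16.0 and 11.2 CPM with EPZ5676, in the same order. It was higher with EPZ5676 in each pair, and the groups overlapped because ethanol replicate 2 exceeded EPZ5676 replicate 3. Its log2 fold change was 0.34 ± 0.18, with edgeR adjusted p of 0.713 and 0.215, and 0.23 without EPZ5676 replicate 2. Tcf7l2 and Tcf7l1, which can also repress target genes, overlapped between the groups: Tcf7l2 ran from 12.6 to 18.2 CPM with ethanol and from 14.7 to 21.5 CPM with EPZ5676, and Tcf7l1 from 1.34 to 1.88 and from 1.56 to 2.88 CPM. An antisense gene overlaps a Lef1 exon in the GRCm38 annotation.

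**Figure D4:**
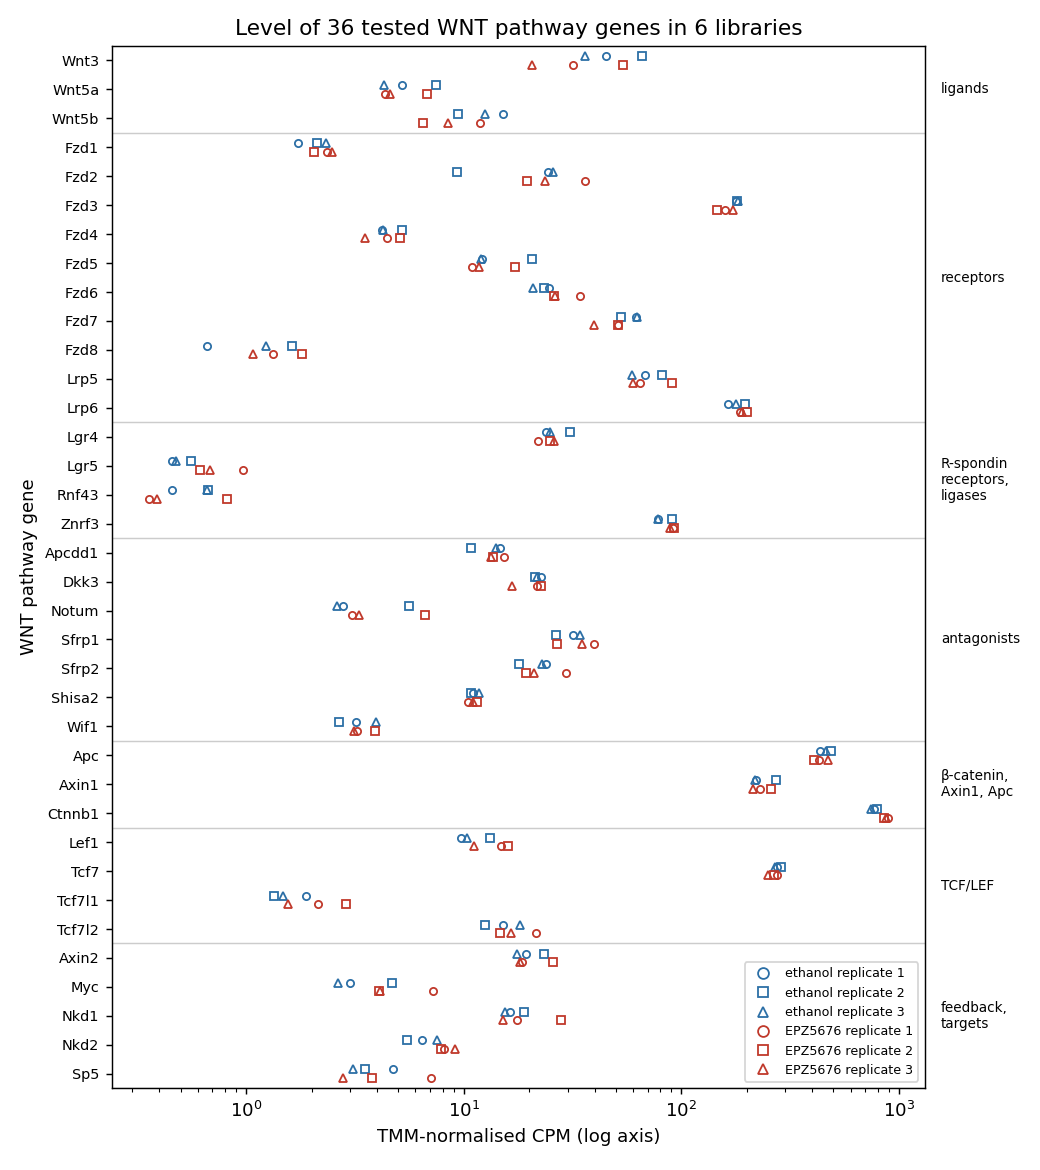
Level of the 36 tested WNT pathway genes (horizontal axis, TMM-normalised CPM, log scale) in the 3 ethanol (blue) and 3 EPZ5676 (red) libraries, with a symbol for each replicate number. Levels run from below 1 CPM for Lgr5 and Rnf43 to 744 to 889 CPM for Ctnnb1, and red and blue symbols overlap for 30 of the 36 genes. CPM is not divided by transcript length.

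The 5 genes listed here as intracellular feedback and target genes (Axin2, Nkd1, Nkd2, Sp5 and Myc) had positive log2 fold changes, beside 48.3% of all genes. So had 6 of 10 other tested target genes outside the 40 (median 0.055). Genes of the 40 under other roles that are also induced by the pathway, such as Lef1 and Notum, are not counted here. Besides Axin2, the sign turned for Nkd1 in 1 alternative and for Sp5 in 2, and none of the 5 passed the test in either fit with all 6 libraries. Axin2, the most widely used readout of canonical WNT signalling, was at 19.4, 23.3 and 17.6 CPM in ethanol replicates 1, 2 and 3 and at 18.6, 25.7 and 18.1 CPM in EPZ5676 replicates 1, 2 and 3. The replicate 2 libraries were highest in both groups, and pair 1 ran against the other pairs. Its log2 fold change was 0.057 ± 0.17 (SE) with edgeR adjusted p of 0.959 and 0.833, and the sign turned without EPZ5676 replicate 2 (-0.13), without ethanol replicate 3 (-0.031) and without both replicate 2 libraries (-0.013). Nkd2, an intracellular inhibitor that binds Dishevelled, was at 6.40, 5.48 and 7.54 CPM with ethanol and at 8.07, 7.85 and 9.15 CPM with EPZ5676, in the same order. Every EPZ5676 library lay above the ethanol range, and the log2 fold change of 0.36 ± 0.17 had edgeR adjusted p of 0.674 and 0.181.

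Myc, a growth-promoting transcription factor gene that many pathways besides WNT regulate, was chosen after its values were seen, because its fold change was the largest of the tested WNT genes. It was at 2.998, 4.70 and 2.66 CPM in ethanol replicates 1, 2 and 3 and at 7.26, 4.10 and 4.14 CPM in EPZ5676 replicates 1, 2 and 3. EPZ5676 replicate 1 was the highest, pair 2 ran against the other pairs, and the groups overlapped. Myc had a log2 fold change of 0.57 ± 0.31 (SE), edgeR adjusted p of 0.713 and 0.312, and 0.26 as its value without EPZ5676 replicate 1. Without both replicate 2 libraries it was 1.01, with an edgeR adjusted p of 0.207, and in the blocked fit without pair 2 it was called higher (0.98, edgeR adjusted p = 0.0116). Nkd1, a relative of Nkd2, ran from 15.4 to 18.9 CPM with ethanol and from 15.1 to 28.0 CPM with EPZ5676. Sp5, a transcription factor gene induced by WNT, ran from 3.08 to 4.73 CPM with ethanol and from 2.78 to 7.05 CPM with EPZ5676.

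Replicate 2 stood apart for a share of the 36 genes that was near the share of all genes. Both replicate 2 libraries lay above the other 4 for 12 genes and below them for 4, together 44.4%, beside 38.2% of all genes tested. Mean log2 CPM in replicate 2 minus that in the other libraries was 1.03 for Notum, 0.89 for Wnt3, 0.41 for Axin2 and -0.999 for Fzd2. Summed fibroblast markers were highest in the same libraries, and their part in the WNT values was not tested. Without both replicate 2 libraries, the groups of the 2 treatments did not overlap for 17 of 35 genes (48.6%), beside 46.2% of all genes.

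**Figure D5:**
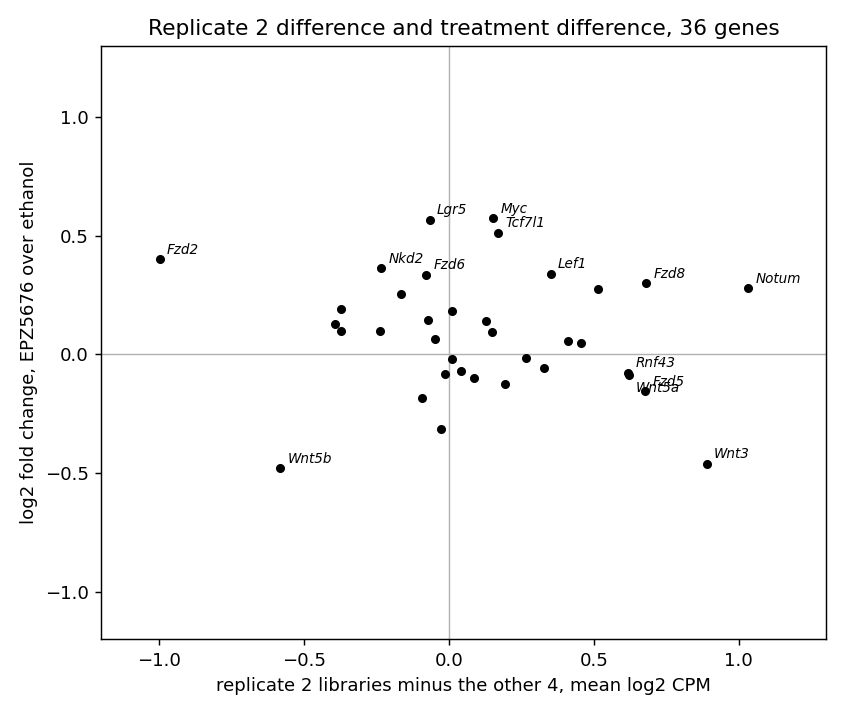
Each point is 1 of the 36 tested WNT genes. The horizontal axis gives the mean log2 CPM of the 2 replicate 2 libraries minus that of the other 4, and the vertical axis the log2 fold change of EPZ5676 over ethanol. Points spread from -0.999 to 1.03 across and from -0.48 to 0.57 up, with Fzd2, Wnt3 and Notum farthest from 0 across.

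Another 81 genes of the pathway were listed beside the 40, among them further ligands, Dishevelled proteins, kinases, beta-catenin cofactors and polarity genes. Of these, 68 were tested, and edgeR called 0 in either fit. At an unadjusted p under 0.05 there were 6 of the 68 unblocked (1 higher, 5 lower), beside 7.41% of all genes, and 14 blocked (7 higher, 7 lower), beside 18.5%. Limma-voom, which called 0, had 6, and DESeq2 had 7. Their median log2 fold change was 0.00334. Frzb, a secreted antagonist, was at 4.27, 5.54 and 5.46 CPM in ethanol replicates 1, 2 and 3 and at 10.8, 8.61 and 8.67 CPM in EPZ5676 replicates 1, 2 and 3. All EPZ5676 libraries lay above all ethanol libraries. Frzb had a log2 fold change of 0.88 ± 0.18 (SE) and edgeR adjusted p of 0.454 and 0.0546, unblocked and blocked. DESeq2 called Frzb higher at an adjusted p of 0.0206, as did the blocked edgeR fits without pair 2 (0.00351) and without pair 3 (0.00564). Kremen2, a receptor for the DKK antagonists, was at 4.32, 4.31 and 5.03 CPM with ethanol and at 3.37, 3.43 and 2.78 CPM with EPZ5676, in the same order, with edgeR adjusted p of 0.628 and 0.189. Dkk2, one of those antagonists, was at 1.02, 1.57 and 0.949 and at 0.920, 0.761 and 0.633 CPM, with edgeR adjusted p of 0.703 and 0.271. Both genes were named after their values were seen.

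Ror2, a receptor tyrosine kinase known for binding WNT5A, was at 10.8, 6.55 and 11.7 CPM in ethanol replicates 1, 2 and 3 and at 6.75, 4.46 and 5.84 CPM in EPZ5676 replicates 1, 2 and 3. Each pair was lower with EPZ5676, and the groups overlapped because EPZ5676 replicate 1 exceeded ethanol replicate 2. Ror2 had a log2 fold change of -0.78 ± 0.25 (SE) and edgeR adjusted p of 0.596 and 0.0519, and without pair 2 the blocked fit called it lower (-0.84, edgeR adjusted p = 0.00380). Wnt9b, a ligand gene, had a value of -0.73 ± 0.30 at edgeR adjusted p of 0.659 and 0.114. Dact2, whose protein binds Dishevelled, had 0.48 ± 0.21 at 0.672 and 0.124, and was called higher in the blocked edgeR fit without pair 3 (adjusted p = 0.0258).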

How the data were processed

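The authors deposited whole-number counts per gene symbol, not normalised, from stranded poly(A) libraries, per the labels' protocols. STAR, featureCounts, edgeR, Bowtie and mm9 stand in the submitters' processing notes. The sources used here do not give their roles, the annotation or whether counting used strand. On GENCODE's GRCm38 annotation, exons of 9 WNT genes overlap a gene on the other strand, and for 2 of them (Ctnnb1, Tcf7l1) that gene has counts too. A repeat family table was not used.

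The deposited counts were tested in R 4.3.3 with filterByExpr (14855 genes kept), TMM scaling and the 2-sided quasi-likelihood test of edgeR 4.0.16, with Benjamini-Hochberg adjustment over all genes and a threshold of 0.05. SE was derived from the log2 fold change and its F statistic. P-values set the difference between the groups against the spread between these libraries, and no label says what a replicate number stands for. Alternatives were RLE scaling, library totals, 2 other filters, DESeq2 1.42.0, limma-voom (limma 3.58.1), libraries left out and a replicate block. On simulated counts the unblocked test called 48 of 100 genes changed 1.5-fold and 94 of 100 changed 2-fold, with 5 false calls. The changed genes had means of at least 5 CPM, and the simulation held no difference between replicate numbers. The largest fold change of a tested WNT gene was 1.49, so differences of that size could often go uncalled. Libraries of a group differed by a chi-square per degree of freedom of 3.64 or more, so none was a copy.

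Deviations from group means correlated at 0.41, 0.61 and 0.34 for libraries of equal number 1, 2 and 3, and between -0.49 and 0.28 for other combinations. All 3 exceeded 0.1, so the numbers were treated as pairs. That bound does not set numbers 1 and 3 apart, since crossed matches of these numbers exceeded it too. Those values were 0.28 (ethanol 3 against EPZ5676 1) and 0.15 (ethanol 1 against EPZ5676 3), below the 0.41 and 0.34 of equal numbers. Deviations cancel within a group, so a departure shared by the replicate 2 libraries also raises values among numbers 1 and 3. The pairing of 1 and 3 therefore rests mainly on the replicate numbers, and no label says what they stand for. Blocked fits and counts over pairs carry this limit. The fits leave 4 residual degrees of freedom without the block and 2 with it.

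The WNT genes and lists were chosen with earlier results of these data known. Described one by one are WNT genes at an unadjusted p under 0.05 in either fit, those whose groups did not overlap and the tested gene of each role with the highest mean CPM, 15 in all. Of the 81 others these are genes under 0.01 in either fit, at most 8.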

Additional observations from a re-analysis of the deposited data

How the results depend on the processing

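The count of 0 WNT genes called held under every alternative with all 6 libraries, when any 1 library was left out, and without both replicate 2 libraries. Over all genes, 0 were called with RLE scaling, library totals, both other filters and limma-voom, 50 with DESeq2, 97 with the replicate block and 10 without both replicate 2 libraries. DESeq2 called 1 of the 81 other pathway genes. With the replicate block on 2 pairs, and 1 residual degree of freedom, leaving out pair 2 gave 795 genes, 5 WNT genes (Ctnnb1, Fzd6 and Myc higher, Wnt3 and Fzd7 lower) and 3 others. Leaving out pair 3 gave 761 genes, 2 WNT genes (Fzd2 higher, Wnt3 lower) and 4 others, and leaving out pair 1 gave 0 of each. The cause of these differences was not tested.

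The median log2 fold change of the WNT genes ran from -0.037 to 0.13 when 1 library was left out. Groups did not overlap for 17 genes without the replicate 2 libraries against 6 with them, a count added after the data were seen, where fewer libraries must separate. Axin2 ran from -0.13 to 0.17 when 1 library was left out, and was -0.013 without both replicate 2 libraries and -0.012 with the block without pair 2, and Sfrp1 ran from -0.0055 to 0.27. Of the 20 tested WNT genes outside the 15 and Myc, 15 changed sign in at least 1 alternative, 2 of them with all 6 libraries, and 0 were called in any. Low counts kept Wnt3a, Wnt4, Wnt6 and Dkk1 from the test.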
